A study of Mus musculus with 12 samples.

Results

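The 44 genes described here are those that a dividing cell uses to leave the G2 phase and pass through mitosis: the cyclins and kinases that start it, the machinery of kinetochores, spindle and cleavage furrow, the ubiquitin machinery that ends it, and the proliferation marker Mki67. The values of all transcripts of a gene were summed. The genes were chosen by name, from textbook roles, with earlier results of these data known. They are 44 of 23422 gene identifiers, and all 44 were among the 11378 genes tested, those that averaged 1 FPKM or more over the libraries (FPKM being fragments per kilobase of transcript, scaled to library depth).

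RNA came from primary endothelial cells of mouse lung (MLECs), cultured as monolayers. Wild type cells were from C57BL/6J mice and double knockout cells from mice lacking the mixed lineage kinases MLK2 and MLK3 (MLK2-/-MLK3-/-), which sit upstream of JNK. Each genotype was kept in normoxia (21% oxygen) or exposed to hypoxia (1% oxygen) for 90 min, with 3 libraries in each of the 4 groups, 12 in all. The series asked which pathways act after the MLK kinases. No label gives the age of the mice, the number of mice or cultures behind the libraries, or whether the wild type mice were littermates of the knockouts. The p-values therefore measure only the spread between these libraries, which may be technical, and genotype and cell isolate cannot be told apart.

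Entry into mitosis is driven by CDK1 bound to cyclin B, helped by the Polo-like and Aurora kinases. The spindle checkpoint then holds the anaphase promoting complex back until every chromosome is attached, after which CDC20 switches the complex on, cyclin B and securin are destroyed and the cell divides. Most of the genes are transcribed in a wave in late S phase and G2, when B-MYB and FOXM1 join the MuvB complex at promoters that carry a cell cycle genes homology region (CHR), often near CCAAT boxes that NF-Y binds. In the quiescent endothelium of a vessel the programme is largely silent, whereas cultured endothelial cells divide.

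Depth was 21.0 to 25.9 M fragments per library, estimated from the smallest steps between values, and the estimated number of fragments behind a value of these genes ran from 122 to 5264, with a median of 679. Both targeted genes were lower in all 6 double knockout libraries than in all 6 wild type libraries. Map3k10, which encodes MLK2, was at 16.6 to 19.2 FPKM in wild type, at 0.131 to 0.169 in double knockout normoxia and at 1.02 to 1.34 in double knockout hypoxia, so the double knockout groups differed in it without overlap. Map3k11, which encodes MLK3, was at 10.9 to 12.2 FPKM in the double knockout, where RNA of the gene thus remained, and at 31.9 to 36.4 FPKM in wild type. Which part of each gene is deleted is not given in the sources used here, and the part of these levels in the differences below was not tested. Of 16 endothelial markers 15 averaged 1 FPKM or more, and their summed level was 4525 to 4770 FPKM across the 12 libraries. Of the 15, limma called 2 higher (13.3%) and 0 lower in the double knockout in normoxia, against 3.84% and 4.32% of tested genes. In hypoxia 6 were higher there (40%) and 1 lower (6.67%), against 7.68% and 8.42%. With hypoxia 2 rose (13.3%) and 1 fell (6.67%) in wild type, against 10.5% and 10.4%. In the double knockout 5 rose (33.3%) and 3 fell (20%), against 19.6% each way. Of 14 fibroblast and mural markers 3 averaged 1 FPKM or more, and the sum of the 14 was 29.4 to 38.6 and 36.7 to 47.8 FPKM in normoxic and hypoxic wild type cells and 29.8 to 31.2 and 31.3 to 37.5 in double knockout cells. Of those 3, Dcn and Acta2 were higher in the double knockout at both oxygen levels in limma (log2 fold changes 0.68 and 0.73 in normoxia, 0.77 and 0.63 in hypoxia), and Tagln, most of the sum, was lower in the double knockout in hypoxia (-0.56) and rose with hypoxia in wild type (0.40). Of 14 epithelial and mesothelial markers 2 reached it, with a sum of 27.5 to 33.6 FPKM and Scgb1a1 at 0 in all libraries, and 1 of them, Ager, rose with hypoxia in wild type (0.77) and in the double knockout (0.80). Of 14 macrophage and leukocyte markers 4 reached it, and their sum moved with genotype, at 41.4 to 54.1 FPKM in wild type and 86.0 to 101.9 in the double knockout. Lyz2 and Cd14 led the sum, while Ptprc, Adgre1, Csf1r, Itgam, Fcgr1 and the C1q genes averaged under 1 FPKM. Within wild type it was 41.4 to 51.5 FPKM in normoxia and 53.1 to 54.1 in hypoxia. The part of cells with these endothelial, macrophage, mural or epithelial markers in the differences below was not tested.

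Many of the promoters hold the CHR and CCAAT elements, and 4 are shown, those of the most abundant genes described in full below that hold a motif and have at most 30 bases inside the annotated gene. Each is the stretch of 150 bases before the RefSeq start (GRCm38.p6), 5′ to 3′ on the gene's own strand, with capitals marking the motifs TTTGAA and TTCGAA (the CHR) and CCAAT on either strand, so that ATTGG and TTCAAA are the same motifs read from the other side. Cdk1, on the minus strand at chr10:69352913-69353062, has both motifs repeated, and Cdc20, on the minus strand at chr4:118437344-118437493, has a CHR between CCAAT boxes. Top2a, on the minus strand at chr11:99024190-99024339, has both CHR forms, and Prc1, on the plus strand at chr7:80294326-80294475, has 1 CHR and 1 CCAAT box. The last bases of the Cdk1, Cdc20 and Prc1 stretches lie inside the annotated gene.
Cdk1: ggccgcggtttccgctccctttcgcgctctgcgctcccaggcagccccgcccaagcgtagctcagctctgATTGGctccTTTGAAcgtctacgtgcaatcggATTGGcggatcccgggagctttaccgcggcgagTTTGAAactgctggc
Cdc20: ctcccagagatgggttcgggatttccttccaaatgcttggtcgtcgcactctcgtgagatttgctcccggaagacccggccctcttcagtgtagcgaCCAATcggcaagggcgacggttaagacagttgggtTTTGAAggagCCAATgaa
Top2a: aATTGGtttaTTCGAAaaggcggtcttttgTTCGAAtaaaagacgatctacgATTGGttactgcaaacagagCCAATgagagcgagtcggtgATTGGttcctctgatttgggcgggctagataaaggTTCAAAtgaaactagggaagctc
Prc1: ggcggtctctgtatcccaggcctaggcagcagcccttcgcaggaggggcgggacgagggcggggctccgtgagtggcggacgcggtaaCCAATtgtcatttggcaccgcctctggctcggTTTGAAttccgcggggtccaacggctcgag

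RefSeq promoters from 250 bases before to 50 after the start matched 37 of the 44 genes by symbol. Foxm1, Ccna2, Cdc25c, Aurkb, Incenp, Tpx2 and Kif20a were not matched. Each gene had 1 window, that nearest the start of its most abundant transcript, while all promoters of the table include every start of a gene. The windows of Kif2c, Cdca3 and Kif4, which hold TTTGAA, lay farthest from that start, at 3867, 488 and 328 bases. TTTGAA lay in 27 of the 37 windows (73.0%), against 17.9% of all 32851 promoters in the table, and TTCGAA, which reads the same on both strands, in 4 (10.8%) against 1.6%. CCAAT lay in 28 (75.7%) against 37.4%, and at least 2 CCAAT boxes in 19 (51.4%) against 11.7%. A CHR and a CCAAT box stood together in 26 of the 37 (70.3%), against 7.5% of all promoters. The E2F motif GCGGGAA lay in 1 (2.7%), that of Plk4, against 4.6%. The windows of Plk4, Ccnb1, Melk, Birc5, Cenpe, Nuf2, Nusap1 and Pttg1 held neither CHR form. A match describes the letters of a window only.

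As a group the genes were highest in wild type cells in normoxia and lowest in double knockout cells in normoxia. Their summed level was 773.4, 823.0 and 821.5 FPKM in normoxic wild type cells and 744.1, 732.5 and 772.9 in hypoxic ones. Double knockout cells summed to 659.4, 677.0 and 700.6 FPKM under normoxia and to 743.7, 716.3 and 761.2 under hypoxia. All 3 double knockout normoxia libraries lay below the other 9, and the 2 hypoxia groups overlapped. Group means were 806.0 ± 28.2, 749.8 ± 20.8, 679.0 ± 20.6 and 740.4 ± 22.7 FPKM (SD, n = 3). In bulk RNA, fewer dividing cells and less of these transcripts per dividing cell cannot be told apart.

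**Figure D1:**
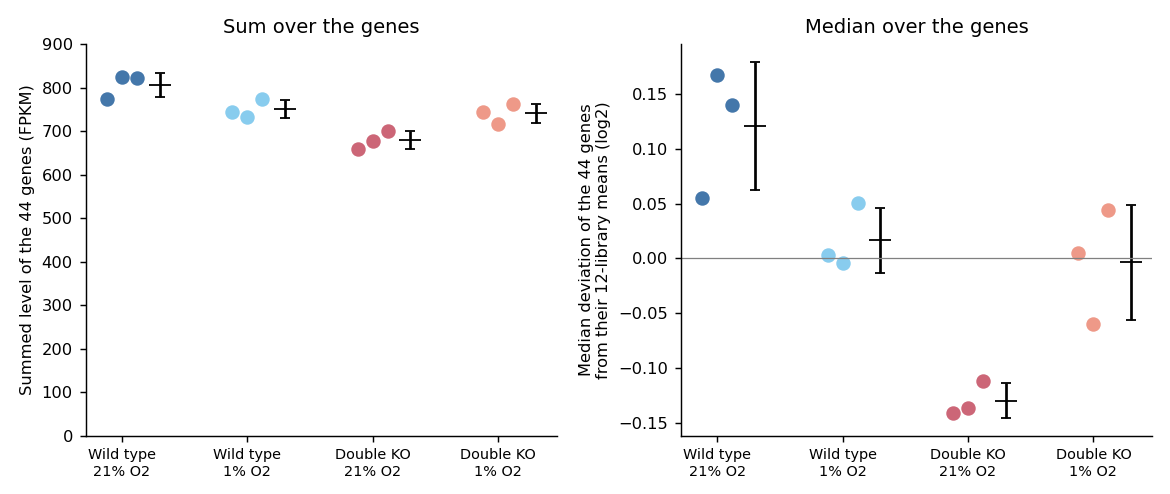
Left, the summed FPKM of the 44 genes in each library (points) with the group mean and SD (bar to the right), and right, the median over the genes of their log2 deviation from their own 12-library mean. The double knockout normoxia libraries are lowest in both panels, at 659.4 to 700.6 FPKM on the left.

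The order was shared by most genes. Wild type normoxia had the highest of the 4 group means for 35 of the 44, against 23.3% of all tested genes, and double knockout normoxia the lowest for 34, against 28.3%. Levels spanned a wide range, from a 12-library mean of 1.19 FPKM for Espl1, which encodes separase, to 74.1 FPKM for Bub3, a checkpoint protein that also serves mRNA metabolism, with a median of 13.5 FPKM. Within groups the genes also varied together: the median Pearson correlation of their deviations from group means was 0.243 over 946 pairs, with 72.7% above 0, against 0.0106 over all pairs of tested genes. The pairs share libraries and depth, so this is a description. Over the 12 libraries, Plk4 (mean correlation with the other genes 0.101), Ttk (0.122), Cdc25b (0.123) and Foxm1 (0.162) were the least like the rest, and Ccna2 (0.684) the most like it.

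**Figure D2:**
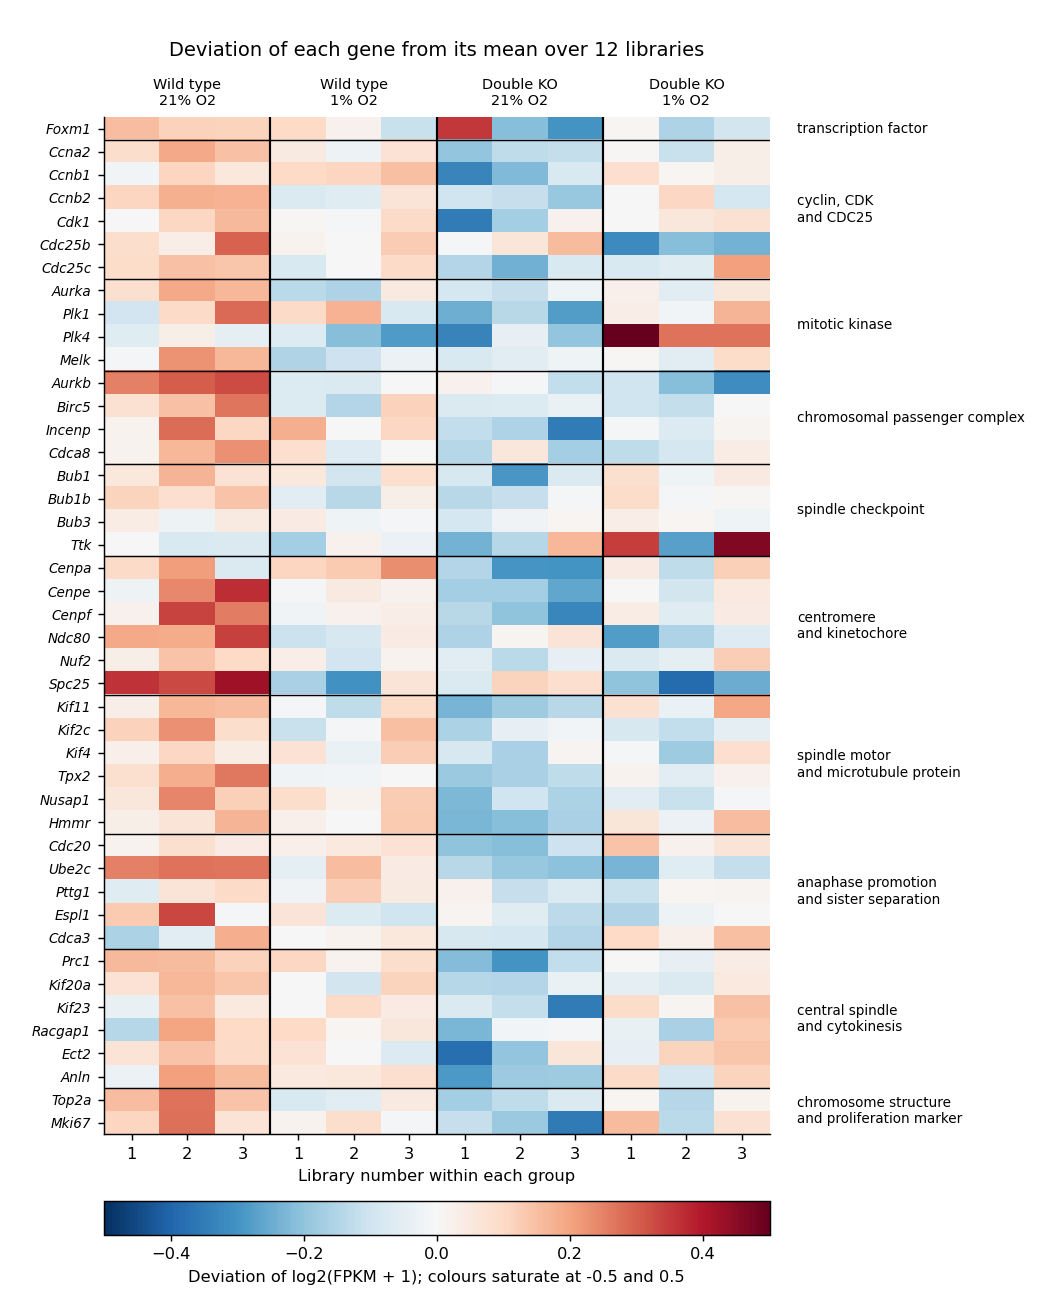
Each cell is the deviation of log2(FPKM + 1) of a gene (rows, grouped by role) from its mean over 12 libraries (columns, 3 per group), red above and blue below. The wild type normoxia columns are mostly red and the double knockout normoxia columns mostly blue, with Plk4 in double knockout hypoxia and Spc25 in wild type normoxia standing out.

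In normoxia, 22 of the 44 genes fell in the double knockout relative to wild type and none was called higher, no fitted difference in limma being above 0. Those called ran through the whole sequence of division: Ccna2, Ccnb1 and Ccnb2 of the cyclins, Aurka and Aurkb of the kinases, Cenpa, Cenpe, Cenpf and Spc25 at the centromere, Kif11, Tpx2, Nusap1 and Hmmr on the spindle, Cdc20 and Ube2c of anaphase, and Prc1, Kif20a and Anln of cytokinesis, with Incenp, Bub1b, Top2a and Mki67. The background was 4.32% of tested genes called lower and 3.84% called higher. Each test was limma on log2(FPKM + 1), adjusted by Benjamini-Hochberg over the 11378 genes with a threshold of 0.05, a scale on which the changes of low genes are understated. All 44 fitted differences were below 0, against 52.2% of tested genes, and the libraries of the 2 genotypes did not overlap for 33, against 14.1% of tested genes lower in this way. The median log2 fold change was -0.26, against -0.01 over all tested genes, and it ran from -0.44 for Ube2c to -0.023 for Ttk.

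The number called rested in part on single libraries: it was 11 without wild type normoxia library 2 and 14 without wild type normoxia library 3. The genes Ube2c, Prc1, Tpx2, Ccna2, Top2a, Aurkb, Cdc20, Ccnb2, Nusap1, Cenpf and Hmmr kept their call with each of the 12 libraries left out in turn. With the most abundant transcript of each gene in place of the sum 10 were called, Prc1, Tpx2, Aurkb and Cenpf of the 11 not among them. In a fit of the normoxia libraries alone 15 were called, Cenpf of the 11 not among them. With no filter on low values 15 were called.

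The median change of the genes with hypoxia was below 0 in wild type and above 0 in the double knockout. In wild type cells 10 of the 44 fell in hypoxia, 0 rose and 34 did not pass in limma, where the background was 10.4% called lower and 10.5% called higher; 13 of the 44 had an unadjusted p under 0.05 in either direction, against 34.4%. Those that fell were Spc25, Aurkb, Top2a, Aurka, Ndc80, Ube2c, Tpx2, Ccnb2, Melk and Bub1b. The median log2 fold change of the 44 was -0.11, against 0.00 over all tested genes, with 37 below 0 against 49.2%. The libraries of 14 lay wholly lower in hypoxia, against 19.4% of tested genes. The count fell to 2 without wild type hypoxia library 1, and to 3 without wild type hypoxia library 2, wild type normoxia library 2 or wild type normoxia library 3. Only Spc25 and Aurkb of the 10 kept their call with each library left out. The count was 5 with the most abundant transcripts and 5 in a fit of these 6 libraries alone.

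In double knockout cells 14 of the 44 rose in hypoxia, 3 fell and 27 did not pass, where 19.6% of tested genes were called higher and 19.6% lower. Those that rose were Cdc20, Plk4, Prc1, Hmmr, Ccnb1, Kif11, Anln, Kif23, Cenpa, Tpx2, Plk1, Mki67, Cdk1 and Cdca3, and those that fell were Cdc25b, Spc25 and Aurkb. The median log2 fold change was 0.13, against 0.01 over all tested genes, with 36 of the 44 above 0 against 51.8%. The libraries of 19 lay wholly higher (25.6% of tested genes) and those of 2 wholly lower (24.6%). The count of 17 in either direction, against 39.3% of tested genes, fell to 10 without double knockout hypoxia library 3 and to 11 without double knockout normoxia library 2. Cdc20, Plk4, Prc1, Hmmr, Ccnb1, Cdc25b, Kif11, Anln and Spc25 kept their call with each library left out. The count was 11 with the most abundant transcripts, where Prc1, Cdc25b, Spc25, Tpx2, Mki67 and Aurkb lost theirs, and 11 with no filter on low values.

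In hypoxia the genotypes differed at few of the genes: Plk4 was higher in the double knockout, Cdc25b and Ube2c were lower, and 41 did not pass, where 7.68% of tested genes were called higher and 8.42% lower. The median log2 fold change was -0.02, against -0.0049 over all tested genes, with 26 below 0 against 51.5%; 23 were below 0 under quantile scaling and 22 under median scaling. Libraries did not overlap for 1 gene higher in the double knockout (17.4% of tested genes) and 5 lower (18.4%). The count fell to 1 without wild type hypoxia library 3, which left Plk4 alone, as did the most abundant transcripts and quantile scaling.

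The test of the difference itself, the hypoxia response of the double knockout minus that of wild type, called 0 of the 44 in limma, where the background was 0.193% of tested genes. At an unadjusted p under 0.05 it held 25 of the 44, against 16.0% of tested genes. The fitted difference was above 0 for 43 of the 44, with Cdc25b (-0.23) the exception, against 50.9% of tested genes, and its median was 0.25 against 0.00. The smallest adjusted p-values were those of Plk4 (0.0770), Tpx2 (0.0780), Prc1 (0.0844), Cdc20 (0.0908), Ccnb2 (0.0971) and Kif11 (0.0978). The comparisons share libraries: each group of 3 enters both an oxygen and a genotype comparison. The normoxia difference and the hypoxia responses, whose medians had opposite signs, are therefore not separate evidence.

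**Figure D3:**
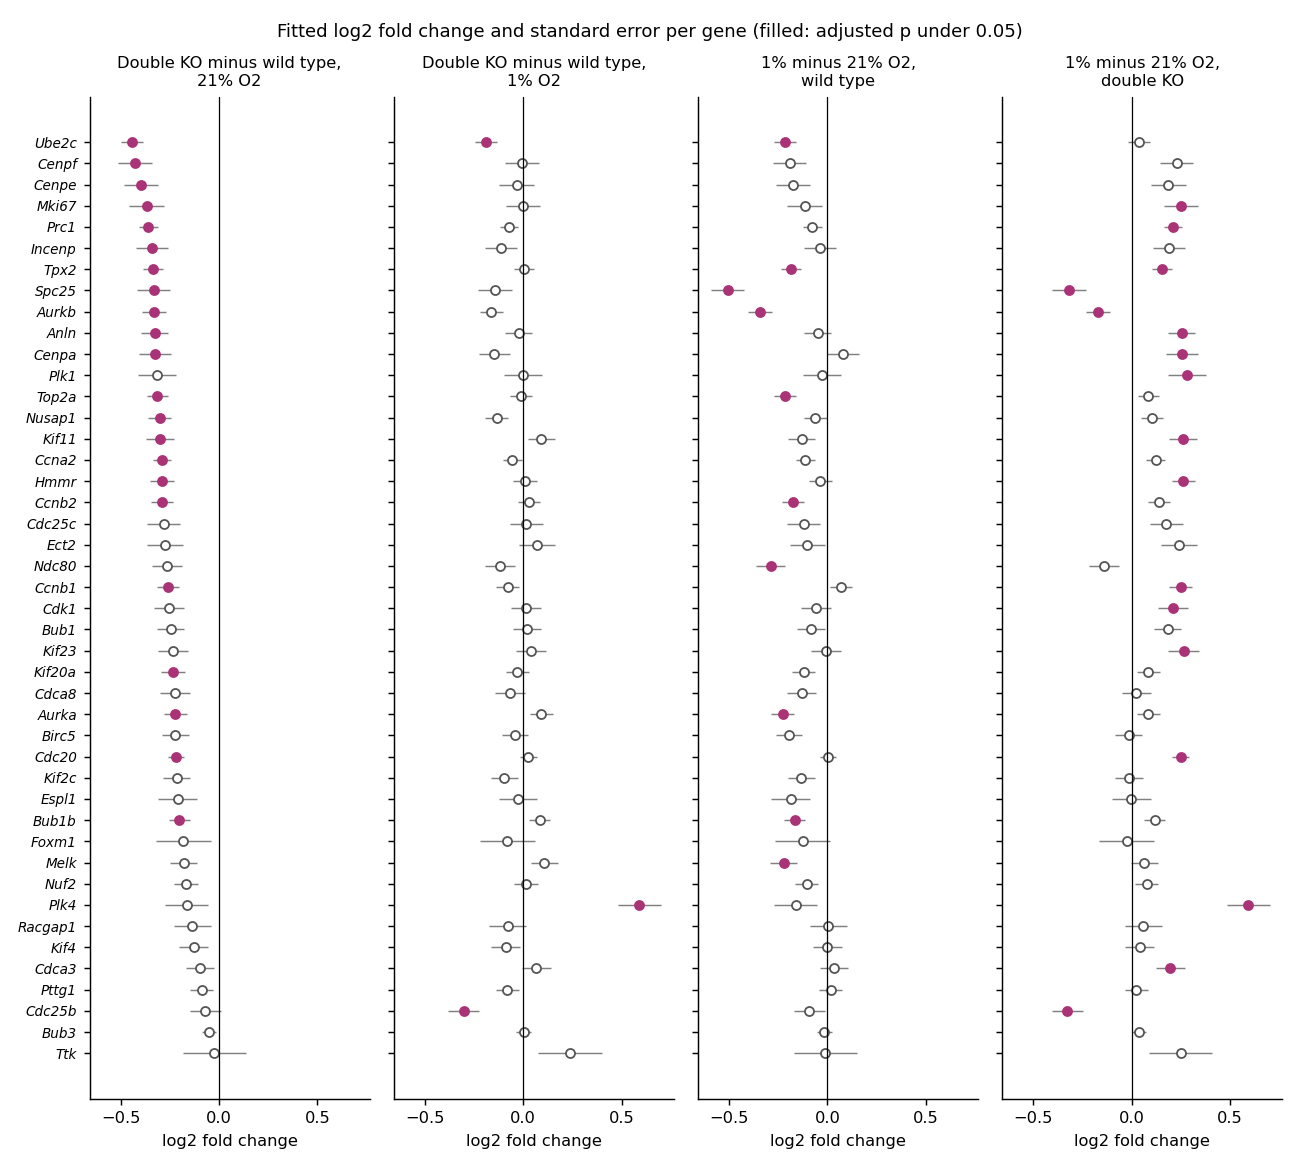
Fitted log2 fold change (x axis) and standard error (bars) of each of the 44 genes (y axis, ordered by the normoxia genotype difference) in 4 comparisons; filled points had an adjusted p under 0.05. All 44 points lie below 0 in the first panel, and Plk4 is the highest point in both panels that involve double knockout hypoxia.

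Foxm1 encodes the transcription factor that switches on many G2/M genes. It read 2.63, 2.53 and 2.53 FPKM in the normoxic and 2.50, 2.31 and 2.02 in the hypoxic wild type libraries. Double knockout libraries gave 3.17, 1.81 and 1.65 FPKM when normoxic and 2.29, 1.93 and 2.06 when hypoxic. Double knockout normoxia library 1 was the highest of the 12 and the other 2 of its group the lowest pair, so the genotypes overlapped. Transcript ENSMUST00000203258 stood at 1.07 FPKM in that library, at 0.13 in double knockout normoxia library 3 and at 0.00 in the other 10. This was more than the lead of that library over the next highest (3.17 against 2.63 FPKM). The main transcript (ENSMUST00000073316, 85.3% of the level) did not overlap between genotypes in normoxia. Its values were 2.31, 2.35 and 2.04 FPKM in wild type and 1.91, 1.81 and 1.52 in the double knockout. Foxm1 passed in no comparison, with a log2 fold change of -0.18 ± 0.14 (SE, limma adjusted p = 0.505) between genotypes in normoxia, -0.081 in hypoxia (adjusted p = 0.745), -0.12 with hypoxia in wild type (adjusted p = 0.571) and -0.025 in the double knockout (adjusted p = 0.905).

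Cdk1, the kinase at the centre of mitotic entry, measured 54.2, 58.2 and 60.7 FPKM in normoxic wild type cells and 54.4, 53.8 and 58.0 in hypoxic ones. Without MLK2 and MLK3 the values were 42.3, 48.0 and 55.0 FPKM under normoxia and 54.3, 56.4 and 57.2 under hypoxia. Double knockout normoxia spread widely, with library 3 inside the wild type range. The genotype difference in normoxia did not pass (log2 fold change -0.26 ± 0.076 SE, limma adjusted p = 0.0648), nor did that in hypoxia (0.015, adjusted p = 0.924) or the hypoxia response of wild type (-0.057, adjusted p = 0.638). The double knockout response passed narrowly, at 0.21 ± 0.076 (SE, limma adjusted p = 0.0445), and was lost without wild type normoxia library 2, wild type hypoxia library 1 or 2, double knockout normoxia library 1 or 2 or double knockout hypoxia library 1, 2 or 3 (adjusted p up to 0.161).

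Ccnb1 encodes cyclin B1, the main partner of CDK1. Its level stood at 27.4, 29.9 and 28.8 FPKM at 21% oxygen in wild type, and at 29.7, 29.9 and 30.9 at 1%. The matching double knockout values were 21.8, 23.6 and 26.2 FPKM at 21% oxygen and 29.4, 27.9 and 28.3 at 1%, so that all 3 normoxia libraries lay below the other 9. Ccnb1 fell in the double knockout in normoxia, by a log2 fold change of -0.26 ± 0.058 (SE, limma adjusted p = 0.0170), a call lost without wild type normoxia library 2 or 3 or double knockout normoxia library 2 (adjusted p up to 0.0735). It rose with hypoxia in the double knockout (log2 fold change 0.25 ± 0.058 SE, limma adjusted p = 0.00498) and gave 0.069 in wild type (adjusted p = 0.430) and -0.078 between genotypes in hypoxia (adjusted p = 0.401). The annotation holds a processed pseudogene, Ccnb1-ps, that could share reads with it.

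Ccnb2, the cyclin B of the Golgi and cytoplasm, read 25.1, 26.4 and 26.4 FPKM in the normoxic and 22.0, 22.3 and 24.3 in the hypoxic wild type libraries. Normoxic double knockout cells had 21.6, 21.4 and 20.2 FPKM and hypoxic ones 23.2, 25.0 and 21.8. The wild type normoxia libraries were the highest 3. Ccnb2 fell in the double knockout in normoxia (log2 fold change -0.29 ± 0.055 SE, limma adjusted p = 0.00684) and in wild type with hypoxia (log2 fold change -0.18 ± 0.055 SE, limma adjusted p = 0.0419), the second call being lost without wild type normoxia library 1, 2 or 3, wild type hypoxia library 1 or 2, double knockout normoxia library 2 or double knockout hypoxia library 1 (adjusted p up to 0.142). A transcribed pseudogene, Ccnb2-ps, may share reads.

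Ccna2 encodes cyclin A2, which acts from S phase into early mitosis. It measured 27.3, 29.2 and 28.4 FPKM in normoxic wild type cells and 26.4, 25.1 and 26.9 in hypoxic ones. Cells lacking both kinases measured 22.2, 23.3 and 23.4 FPKM at 21% oxygen and 25.7, 23.6 and 26.1 at 1%. The 4 groups stood in the order of the summed level, and the normoxia libraries of the double knockout lay below all others. The normoxia genotype difference was -0.29 ± 0.047 (SE, limma adjusted p = 0.00277). Of its exon bases 12.5% overlap Exosc9 on the opposite strand, and strand use in the counting is not given in the sources used here.

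Cdc25b and Cdc25c encode phosphatases that release CDK1 from inhibition. Cdc25b stood at 4.72, 4.50 and 5.60 FPKM at 21% oxygen in wild type, and at 4.44, 4.37 and 4.87 at 1%. Double knockout libraries gave 4.35, 4.61 and 4.99 FPKM when normoxic and 3.32, 3.64 and 3.57 when hypoxic, where all 3 libraries lay below the other 9. Against the median of the 44, it fell with hypoxia in the double knockout (log2 fold change -0.33 ± 0.078 SE, limma adjusted p = 0.00594), and it was lower than wild type in hypoxia (log2 fold change -0.30 ± 0.078 SE, limma adjusted p = 0.0213). The second call was lost without wild type hypoxia library 3 or double knockout hypoxia library 1 (adjusted p up to 0.0783), and both were lost with the most abundant transcript in place of the sum. Cdc25c, between 3.07 and 4.54 FPKM in all libraries, passed in no comparison.

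Among the mitotic kinases, Plk4, the master kinase of centriole duplication, had a pattern of its own. It read 6.78, 7.27 and 6.82 FPKM in the normoxic and 6.75, 6.00 and 5.66 in the hypoxic wild type libraries. Without MLK2 and MLK3 the values were 5.43, 6.89 and 6.08 FPKM under normoxia and 11.9, 8.78 and 8.78 under hypoxia, so that all 3 double knockout hypoxia libraries lay above the other 9. Plk4 rose with hypoxia in the double knockout (log2 fold change 0.59 ± 0.11 SE, limma adjusted p = 0.00115) and was higher than wild type in hypoxia (log2 fold change 0.59 ± 0.11 SE, limma adjusted p = 0.00360). Both calls held under every alternative run, those without single libraries included. In wild type, hypoxia gave -0.16 (adjusted p = 0.328), and the difference of the responses, 0.75 ± 0.15 (SE, limma adjusted p = 0.0770), did not pass. The main transcript (ENSMUST00000026858) carried 95.6% of the level, and 2.02 FPKM of the value in double knockout hypoxia library 1 came from ENSMUST00000204032.

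Plk1, the Polo-like kinase of mitotic entry and exit, measured 6.32, 7.37 and 8.52 FPKM in normoxic wild type cells and 7.37, 7.83 and 6.42 in hypoxic ones. The matching double knockout values were 5.60, 6.11 and 5.45 FPKM at 21% oxygen and 7.01, 6.75 and 7.79 at 1%, with the normoxia libraries below the other 9. It rose with hypoxia in the double knockout (log2 fold change 0.28 ± 0.096 SE, limma adjusted p = 0.0349), a call lost without double knockout normoxia library 1 or 3 or double knockout hypoxia library 1 or 3 (adjusted p up to 0.120). The normoxia genotype difference was -0.32 ± 0.096 (SE, limma adjusted p = 0.0695) and did not pass, while wild type hypoxia gave -0.030 (adjusted p = 0.861) and the genotypes in hypoxia -0.0019 (adjusted p = 0.994).

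Aurka, the Aurora kinase of the spindle poles, stood at 17.8, 19.2 and 18.9 FPKM at 21% oxygen in wild type, and at 15.2, 14.9 and 17.3 at 1%. Normoxic double knockout cells had 15.7, 15.4 and 16.5 FPKM and hypoxic ones 17.1, 16.1 and 17.5. All 3 wild type normoxia libraries lay above the other 9. Aurka fell in wild type with hypoxia (log2 fold change -0.23 ± 0.058 SE, limma adjusted p = 0.0175), a call lost without wild type normoxia library 2 or 3 or wild type hypoxia library 1 or 2 (adjusted p up to 0.0732). It fell in the double knockout in normoxia (log2 fold change -0.22 ± 0.058 SE, limma adjusted p = 0.0371), a call lost without wild type normoxia library 2 or 3, double knockout normoxia library 1, 2 or 3 or double knockout hypoxia library 1 (adjusted p up to 0.126). Melk, a kinase of the same wave, was between 3.99 and 5.47 FPKM and fell with hypoxia in wild type (-0.22, adjusted p = 0.0422), a call lost without wild type normoxia library 2 or 3, wild type hypoxia library 1 or 2, double knockout normoxia library 1, 2 or 3 or double knockout hypoxia library 1 (adjusted p up to 0.139).

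Aurkb is the kinase of the chromosomal passenger complex, which corrects wrong attachments. It read 13.0, 13.5 and 13.8 FPKM in the normoxic and 10.2, 10.2 and 10.8 in the hypoxic wild type libraries. Cells lacking both kinases measured 10.9, 10.7 and 9.80 FPKM at 21% oxygen and 9.97, 9.16 and 8.48 at 1%. The wild type normoxia libraries stood above the other 9, and the double knockout groups overlapped. Aurkb fell with hypoxia in wild type (log2 fold change -0.34 ± 0.060 SE, limma adjusted p = 0.00257) and in the double knockout in normoxia (log2 fold change -0.33 ± 0.060 SE, limma adjusted p = 0.00501). The hypoxia response of the double knockout passed (log2 fold change -0.17 ± 0.060 SE, limma adjusted p = 0.0408) but was lost without wild type normoxia library 2 or 3, wild type hypoxia library 1 or 2, double knockout normoxia library 1 or 2 or double knockout hypoxia library 2 or 3 (adjusted p up to 0.159), and the genotype difference in hypoxia did not pass (-0.16, adjusted p = 0.0939). Incenp, the scaffold of the complex, fell in the double knockout in normoxia (-0.34, adjusted p = 0.0228), a call lost without wild type normoxia library 2 or 3 or double knockout normoxia library 3 (adjusted p up to 0.0915). Birc5 (survivin) at -0.22 and Cdca8 (borealin) at -0.22 did not pass in that comparison.

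**Figure D4:**
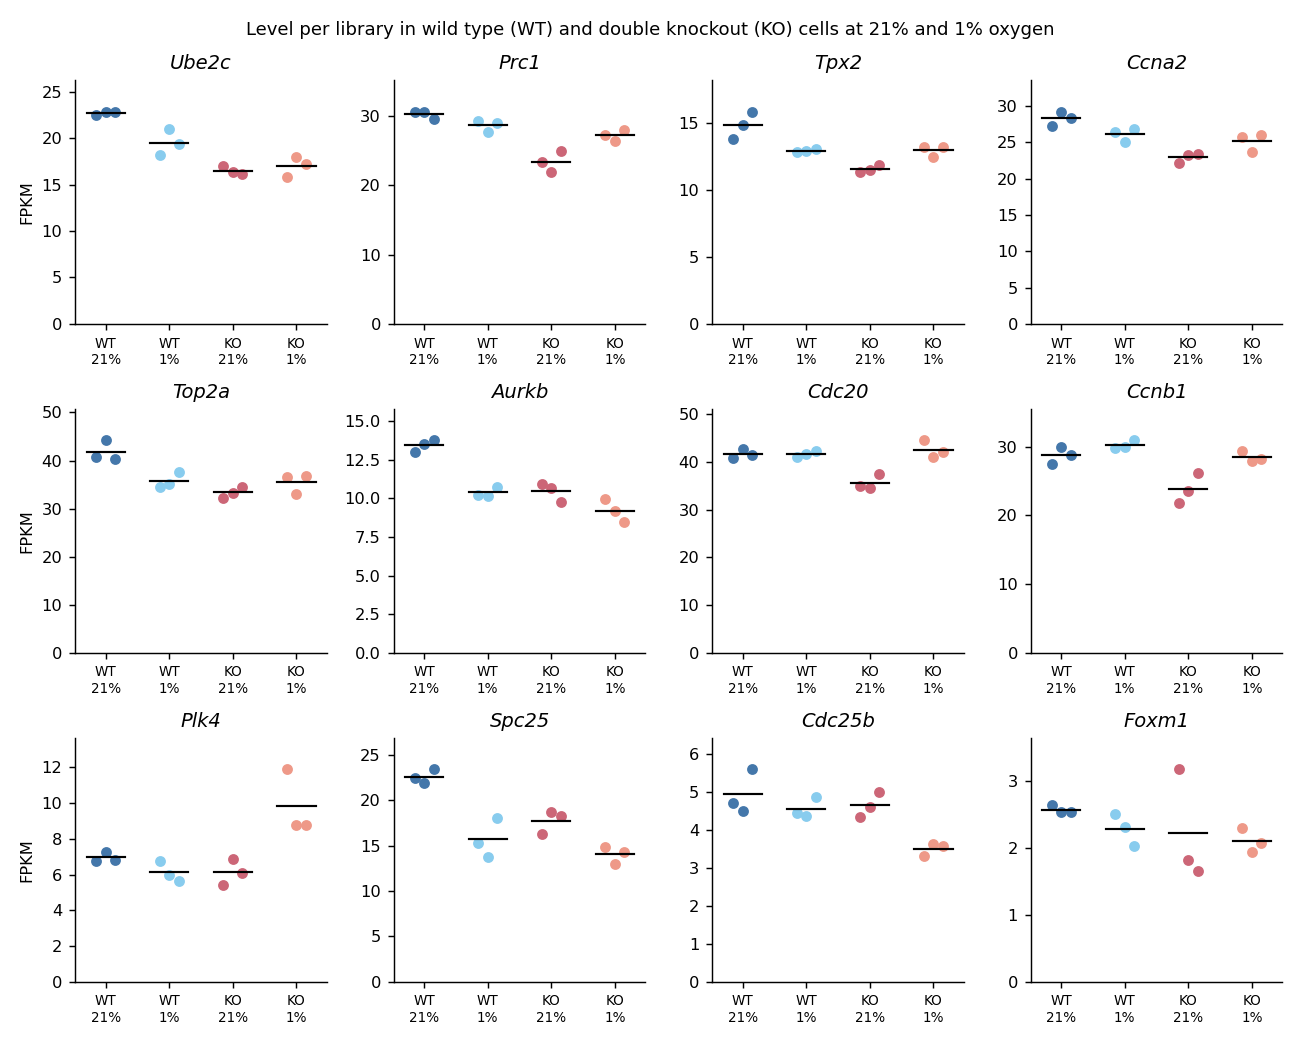
FPKM per library (points) and group mean (line) of 12 of the genes in wild type (WT) and double knockout (KO) cells at 21% and 1% oxygen; each y axis starts at 0 and has its own range. Ube2c shows 3 wild type normoxia values within 22.5 to 22.8 FPKM, and Plk4 3 double knockout hypoxia values above all others.

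Of the 4 spindle checkpoint genes, Bub1b alone passed in any comparison. Bub3 lay between 69.6 and 76.5 FPKM in all 12 libraries and passed in no comparison. Bub1b, which encodes BUBR1, fell in the double knockout in normoxia (-0.20, adjusted p = 0.0371) and in wild type with hypoxia (-0.17, adjusted p = 0.0435), the first lost without wild type normoxia library 1, 2 or 3, wild type hypoxia library 1, double knockout normoxia library 1 or 2 or double knockout hypoxia library 3 (adjusted p up to 0.116) and the second lost without wild type normoxia library 1, 2 or 3, wild type hypoxia library 1 or 2, double knockout normoxia library 2 or double knockout hypoxia library 2 or 3 (adjusted p up to 0.158). Bub1, between 8.30 and 11.8 FPKM, passed in no comparison. Ttk, the MPS1 kinase that starts checkpoint signalling, had the largest standard error of the 44 (0.16 on the log2 scale in each comparison of 2 groups), at 8.52, 5.21 and 9.32 FPKM in double knockout hypoxia, where 1 transcript (ENSMUST00000191484) varied from 0.46 to 3.87 FPKM. Ttk passed in no comparison.

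At the kinetochore, Spc25 and Ndc80 belong with Nuf2 to the complex that grips microtubules. Spc25 measured 22.4, 21.9 and 23.4 FPKM in normoxic wild type cells and 15.3, 13.7 and 18.0 in hypoxic ones. Double knockout libraries gave 16.3, 18.7 and 18.3 FPKM when normoxic and 14.8, 12.9 and 14.3 when hypoxic. Wild type normoxia lay above all other libraries, and hypoxia was lower than normoxia in both genotypes without overlap. Spc25 fell with hypoxia in wild type (log2 fold change -0.51 ± 0.086 SE, limma adjusted p = 0.00198) and in the double knockout (log2 fold change -0.32 ± 0.086 SE, limma adjusted p = 0.0113). It also fell in the double knockout in normoxia (log2 fold change -0.33 ± 0.086 SE, limma adjusted p = 0.0340), a call lost without wild type normoxia library 1, 2 or 3 or double knockout normoxia library 1, 2 or 3 (adjusted p up to 0.108).

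Ndc80 stood at 13.9, 13.9 and 15.6 FPKM at 21% oxygen in wild type, and at 11.1, 11.3 and 12.4 at 1%, without overlap. Without MLK2 and MLK3 the values were 10.7, 12.2 and 12.7 FPKM under normoxia and 9.77, 10.7 and 11.5 under hypoxia, which overlapped. It fell with hypoxia in wild type (log2 fold change -0.29 ± 0.075 SE, limma adjusted p = 0.0191), a call lost without wild type normoxia library 3 or wild type hypoxia library 1 or 2 (adjusted p up to 0.0778). Cenpa, the histone that marks the centromere, Cenpe, a kinetochore motor, and Cenpf fell in the double knockout in normoxia, with log2 fold changes of -0.32, -0.40 and -0.43 (adjusted p = 0.0276, 0.0162 and 0.00900). The Cenpf call was lost with its most abundant transcript and in a fit of the normoxia libraries alone (limma adjusted p up to 0.0599). The Cenpa call was lost without wild type normoxia library 1 or 2 or double knockout normoxia library 2 or 3 (adjusted p up to 0.112). The Cenpe call was lost without wild type normoxia library 2 or 3 or double knockout normoxia library 3 (adjusted p up to 0.0644). The same call was also lost with its most abundant transcript and in a fit of the normoxia libraries alone (limma adjusted p up to 0.0760). Of its 6.28 FPKM in wild type normoxia library 3, 1.18 came from ENSMUST00000197369, which was at 0.00 in the other libraries. Cenpa rose with hypoxia in the double knockout (0.26, adjusted p = 0.0235), a call lost without double knockout normoxia library 2 or 3 or double knockout hypoxia library 1 or 3 (adjusted p up to 0.0935). Nuf2, between 14.6 and 17.9 FPKM, passed in no comparison.

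Of the 6 spindle genes, Kif11, Tpx2, Nusap1 and Hmmr fell in the double knockout in normoxia, and Kif11, Tpx2 and Hmmr rose with hypoxia in the double knockout. Tpx2, which activates Aurora A on the spindle, read 13.8, 14.9 and 15.9 FPKM in the normoxic and 12.9, 12.9 and 13.1 in the hypoxic wild type libraries. The matching double knockout values were 11.3, 11.5 and 11.9 FPKM at 21% oxygen and 13.2, 12.5 and 13.3 at 1%. Wild type normoxia lay above, and double knockout normoxia below, all the hypoxia libraries, which overlapped each other. The normoxia genotype difference was -0.33 ± 0.050 (SE, limma adjusted p = 0.00150), the wild type hypoxia response -0.19 ± 0.050 (SE, limma adjusted p = 0.0228) and that of the double knockout 0.15 ± 0.050 (SE, limma adjusted p = 0.0300). The wild type hypoxia call was lost without wild type normoxia library 2 or 3 or wild type hypoxia library 1 or 2 (adjusted p up to 0.0904). The double knockout call was lost without double knockout normoxia library 1 or 2 or double knockout hypoxia library 1 or 3 (adjusted p up to 0.0879). Nusap1, which binds microtubules at the chromosomes, gave -0.30 between genotypes in normoxia (adjusted p = 0.00737).

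Kif11, the motor that pushes spindle poles apart, measured 15.3, 16.9 and 16.8 FPKM in normoxic wild type cells and 14.9, 13.6 and 16.0 in hypoxic ones. Normoxic double knockout cells had 12.6, 13.1 and 13.5 FPKM, below the other 9 libraries, and hypoxic ones 15.8, 14.6 and 17.2. It rose with hypoxia in the double knockout (log2 fold change 0.26 ± 0.070 SE, limma adjusted p = 0.0108) and fell in the double knockout in normoxia (-0.30, adjusted p = 0.0206), the latter lost without wild type normoxia library 2 or 3 or double knockout normoxia library 1 or 2 (adjusted p up to 0.0828). Hmmr, a spindle assembly factor, stood at 11.5, 11.8 and 12.8 FPKM at 21% oxygen in wild type, and at 11.5, 11.3 and 12.4 at 1%. Cells lacking both kinases measured 9.48, 9.58 and 9.98 FPKM at 21% oxygen, again below the other 9, and 11.8, 11.0 and 12.6 at 1%. Hmmr rose with hypoxia in the double knockout (log2 fold change 0.26 ± 0.059 SE, limma adjusted p = 0.00429) and fell in the double knockout in normoxia (-0.29, adjusted p = 0.0106). Kif2c and Kif4, a microtubule depolymerase and a chromosome motor, passed in no comparison, and 15.1% of the exon bases of Kif4 overlap Pdzd11 on the opposite strand.

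In the anaphase machinery, Ube2c, the ubiquitin carrier of the anaphase promoting complex, had the smallest adjusted p of the 44 between genotypes in normoxia. It read 22.5, 22.8 and 22.8 FPKM in the normoxic and 18.2, 20.9 and 19.3 in the hypoxic wild type libraries. Double knockout libraries gave 16.9, 16.3 and 16.1 FPKM when normoxic and 15.8, 17.9 and 17.2 when hypoxic. All 6 double knockout libraries lay below all 6 wild type libraries, and wild type normoxia above all others. Ube2c was lower in the double knockout in normoxia (log2 fold change -0.44 ± 0.056 SE, limma adjusted p = 0.000476) and in hypoxia (log2 fold change -0.19 ± 0.056 SE, limma adjusted p = 0.0397), and fell in wild type with hypoxia (log2 fold change -0.21 ± 0.056 SE, limma adjusted p = 0.0194). The normoxia genotype call held under every alternative run, and the hypoxia genotype call was lost in 13 of 23, being lost without wild type normoxia library 1, 2 or 3, wild type hypoxia library 2 or 3, double knockout normoxia library 2 or double knockout hypoxia library 1 or 3 (adjusted p up to 0.153). The wild type hypoxia call was lost without wild type normoxia library 2 or 3 or wild type hypoxia library 1 (adjusted p up to 0.0836). Of its exon bases 22.8% overlap Tnnc2 on the opposite strand, which was itself at 0.0661 FPKM.

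Cdc20, the activator of the complex, measured 40.7, 42.6 and 41.5 FPKM in normoxic wild type cells and 41.0, 41.7 and 42.4 in hypoxic ones, which overlapped fully. Without MLK2 and MLK3 the values were 34.9, 34.6 and 37.4 FPKM under normoxia, below the other 9 libraries, and 44.5, 40.9 and 42.2 under hypoxia. It fell in the double knockout in normoxia (log2 fold change -0.22 ± 0.041 SE, limma adjusted p = 0.00636) and rose with hypoxia there (log2 fold change 0.25 ± 0.041 SE, limma adjusted p = 0.000592), both under every alternative run. Wild type hypoxia gave 0.0025 (adjusted p = 0.977). Cdca3, a trigger of mitotic entry that works through ubiquitin ligase, rose with hypoxia in the double knockout (0.20, adjusted p = 0.0487), a call lost without wild type normoxia library 2, wild type hypoxia library 1, 2 or 3, double knockout normoxia library 1, 2 or 3 or double knockout hypoxia library 1, 2 or 3 (adjusted p up to 0.143). Pttg1 (securin), at 32.1 to 38.0 FPKM, and Espl1 (separase), which securin holds back, passed in no comparison.

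For cytokinesis, Prc1, which bundles the central spindle, stood at 30.6, 30.5 and 29.6 FPKM at 21% oxygen in wild type, and at 29.3, 27.6 and 29.0 at 1%. The matching double knockout values were 23.3, 22.0 and 24.9 FPKM at 21% oxygen and 27.2, 26.4 and 27.9 at 1%. Double knockout normoxia lay below the other 9 libraries, without overlap. Prc1 fell in the double knockout in normoxia (log2 fold change -0.36 ± 0.047 SE, limma adjusted p = 0.000552) and rose with hypoxia there (log2 fold change 0.21 ± 0.047 SE, limma adjusted p = 0.00388); both calls were lost only when its most abundant transcript, 35.8% of its level, stood in for the sum. Of its exon bases 11.1% overlap Rccd1 on the opposite strand.

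Anln, which encodes anillin of the cleavage furrow, read 13.4, 15.9 and 15.4 FPKM in the normoxic and 14.2, 14.2 and 14.6 in the hypoxic wild type libraries. Normoxic double knockout cells had 11.0, 11.9 and 12.0 FPKM, below the other 9 libraries, and hypoxic ones 14.7, 12.9 and 14.8. It rose with hypoxia in the double knockout (log2 fold change 0.26 ± 0.068 SE, limma adjusted p = 0.0110) and fell in the double knockout in normoxia (-0.33, adjusted p = 0.0118), the latter lost without wild type normoxia library 2 (adjusted p up to 0.0556). Kif23, a motor of the central spindle, rose with hypoxia in the double knockout (0.26, adjusted p = 0.0171), a call lost without double knockout normoxia library 3 or double knockout hypoxia library 3 (adjusted p up to 0.0651). Kif20a fell in the double knockout in normoxia (-0.23, adjusted p = 0.0312), a call lost without wild type normoxia library 2 or 3 or double knockout normoxia library 1 or 2 (adjusted p up to 0.110). With its most abundant transcript alone the value was 0.029, and 29.3% of its exon bases overlap Cdc23 on the opposite strand. Racgap1 and Ect2, which switch on RhoA at the furrow, passed in no comparison.

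Top2a, the topoisomerase that untangles sister chromatids, measured 40.6, 44.2 and 40.3 FPKM in normoxic wild type cells and 34.5, 35.0 and 37.6 in hypoxic ones. Cells lacking both kinases measured 32.2, 33.3 and 34.6 FPKM at 21% oxygen and 36.7, 32.9 and 36.9 at 1%. Wild type normoxia lay above the other 9 libraries, which overlapped. Top2a fell in the double knockout in normoxia (log2 fold change -0.31 ± 0.055 SE, limma adjusted p = 0.00394) and with hypoxia in wild type (log2 fold change -0.22 ± 0.055 SE, limma adjusted p = 0.0165), the latter lost without wild type normoxia library 2 or wild type hypoxia library 1 or 2 (adjusted p up to 0.0675).

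Mki67, which encodes the Ki-67 protein of dividing cells, stood at 6.67, 7.61 and 6.46 FPKM at 21% oxygen in wild type, and at 6.22, 6.58 and 6.10 at 1%. Double knockout libraries gave 5.58, 5.26 and 4.58 FPKM when normoxic and 6.96, 5.49 and 6.50 when hypoxic. Wild type normoxia lay above double knockout normoxia without overlap, and the hypoxia groups overlapped. Mki67 fell in the double knockout in normoxia (log2 fold change -0.37 ± 0.088 SE, limma adjusted p = 0.0242), a call lost without wild type normoxia library 2 or double knockout normoxia library 2 or 3 (adjusted p up to 0.0997). It rose with hypoxia in the double knockout (log2 fold change 0.25 ± 0.088 SE, limma adjusted p = 0.0400), a call lost without wild type hypoxia library 1, double knockout normoxia library 2 or 3 or double knockout hypoxia library 1 or 3 (adjusted p up to 0.152), and gave -0.11 in wild type (adjusted p = 0.389) and -0.00067 between genotypes in hypoxia (adjusted p = 0.997).

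Other parts of the cell cycle are given beside the 44 genes as counts and medians, with no test of a list. Their lists were drawn up by name, with earlier results of these data known. The shares of all tested genes called lower and higher were 4.32% and 3.84% between genotypes in normoxia, 10.4% and 10.5% with hypoxia in wild type and 19.6% each way with hypoxia in the double knockout. Of 31 tested further motor, spindle and centrosome genes, 11 (35.5%) fell in the double knockout in normoxia and 0 rose, Cep55, Tacc3, Kif20b and Kif15 leading, with a median log2 fold change of -0.18. Of 36 further kinetochore and checkpoint genes 4 (11.1%) fell there and 0 rose, Sgo2a, Kntc1, Knl1 and Cenpn, with a median of -0.17. Of 41 DNA replication and S phase genes 7 (17.1%) fell there and 0 rose, Pold1, Tk1, Mcm10 and Uhrf1 leading, with a median of -0.13. With hypoxia in wild type, 18 of those 41 (43.9%) fell and 0 rose, beside 10 of the 44 mitotic genes (22.7%). In the double knockout 1 rose (2.44%) and 3 fell (7.32%), beside 14 (31.8%) and 3 (6.82%) of the 44. Their difference of the responses was above 0 for 41 of 41, with a median of 0.18, and limma called 0. With hypoxia in wild type, 7 of the 31 motor, spindle and centrosome genes (22.6%) fell and 0 rose, with a median of -0.13. In the double knockout 4 of them rose (12.9%) and 2 fell (6.45%), with a median of 0.054. Among the 36 kinetochore and checkpoint genes 6 (16.7%) fell with hypoxia in wild type and 0 rose, with a median of -0.13. In the double knockout 2 of these rose (5.56%) and 5 fell (13.9%), with a median of -0.017.

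Of 18 condensin and cohesin genes 2 (11.1%) fell in the double knockout in normoxia, Ncapd2 and Smc2, and 6 rose (33.3%) and 1 fell (5.56%) with hypoxia there. Of 17 genes of the anaphase promoting complex and its regulators 1 (5.88%) fell in the double knockout in normoxia, Fbxo5, a share near the 4.32% of all tested genes, and the median was -0.0064. Of 21 genes of MuvB, B-MYB, the E2F factors and NF-Y, which regulate the programme up or down, 2 (9.52%) fell there, Lin54 and Rbl1. With hypoxia in the double knockout 2 rose (9.52%) and 5 fell (23.8%, near the 19.6% of all tested genes), Lin52, Nfya, Nfyb and Lin37 leading. Of 19 genes that hold cells in G2 or set entry, 2 rose (10.5%) in the double knockout in normoxia and 1 fell (5.26%). Between genotypes in hypoxia 4 of the 19 were higher (21.1%) and 2 lower (10.5%), against 7.68% and 8.42% of all tested genes. With hypoxia 5 of the 19 rose (26.3%) and 0 fell in wild type, against 10.5% and 10.4% of all tested genes. In the double knockout 5 rose (26.3%) and 4 fell (21.1%), against 19.6% each way. The median log2 fold change of the 19 between genotypes in normoxia was -0.014. Cdkn1a, which encodes the CDK inhibitor p21, was 1 of the 2 that rose in the double knockout in normoxia (log2 fold change 0.33, limma adjusted p = 0.00058). Cdkn1a was also higher in the double knockout in hypoxia (0.34, limma adjusted p = 0.000332). The part of Cdkn1a in the levels of the mitotic genes was not tested. Of 12 G1 genes 1 rose and 1 fell in normoxia (8.33% each), Cdkn2a (0.38, limma adjusted p = 0.00375) and Ccnd1 (-0.20, adjusted p = 0.00703).

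**Figure D5:**
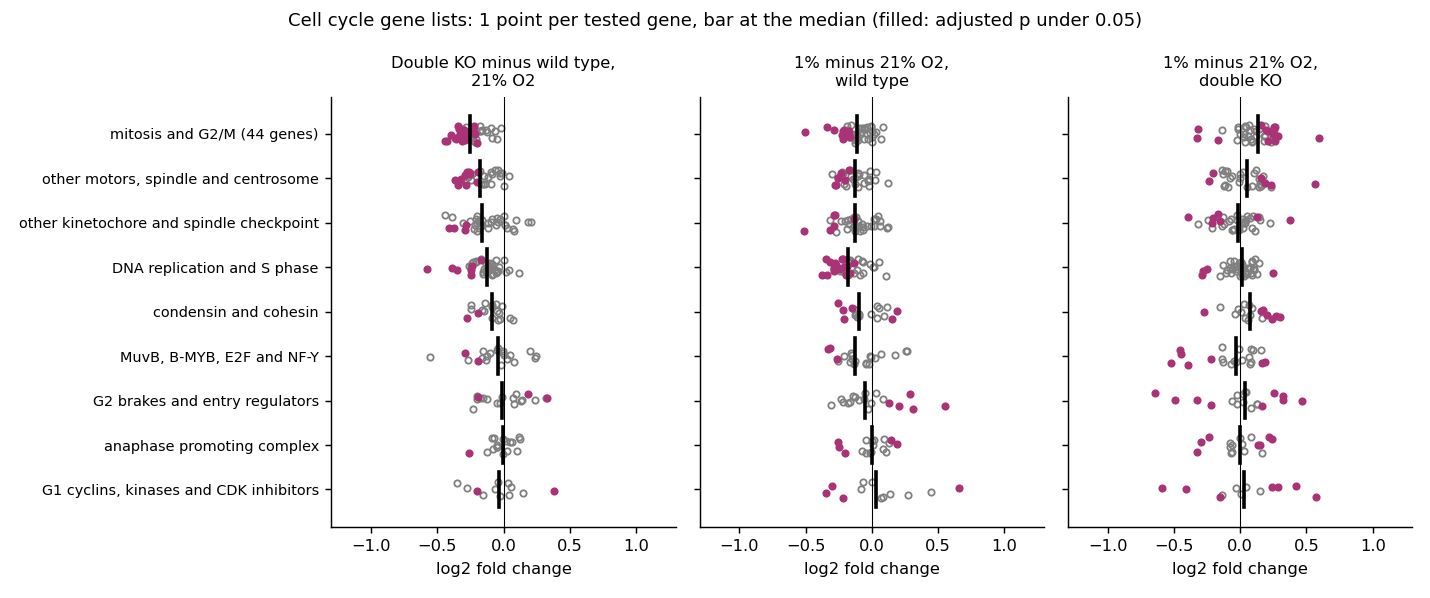
Fitted log2 fold changes (x axis) of the tested genes of 9 cell cycle lists (rows) in 3 comparisons; 1 point is 1 gene, filled where the adjusted p was under 0.05, and the bar marks the median. The median of the 44 genes lies at -0.26 in the first panel, -0.11 in the second and 0.13 in the third.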

How the data were processed

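RNA of 12 libraries of mouse lung endothelial cells was sequenced. The authors deposited FPKM values per transcript, per the file headers, and TopHat2 is named per the submitters' processing notes. The sources used here name no version, build, annotation or FPKM software (not given in the sources used here). Transcripts were summed per gene identifier. Genes that averaged 1 FPKM or more (11378 of 23422) were tested on log2(FPKM + 1) in limma 3.58.1 under R 4.3.3, with 1 coefficient per group, all 12 libraries, 8 residual degrees of freedom and a trend of the variance on the mean. Benjamini-Hochberg adjustment used a threshold of 0.05 within each comparison. Positions are those of GENCODE M21 on GRCm38 (95.2% of transcripts matched) and promoters those of RefSeq (GRCm38.p6).

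Depth was estimated from values that are whole multiples of 1 fragment (within 0.1 fragments for 90.3 to 91.9% of low values). The genes and lists were chosen with earlier results of these data known. Described in full were up to 8 called genes per comparison with the smallest adjusted p, plus Foxm1, Cdk1, Ccnb1, Plk1, Aurkb and Mki67. From each further list up to 4 called genes were named. Promoters shown were the 4 most abundant genes described in full with a motif and at most 30 bases inside the annotated gene, a condition set after the sequences were seen. The fit was checked on simulated data. Alternatives were another pseudocount (0.1), other filters (none, 5 FPKM), quantile or median scaling, fewer libraries, no variance trend, a replicate block, removal of GC and length trends, single transcripts and each library left out.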

Additional observations from a re-analysis of the deposited data

How the results depend on the processing

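Median log2 fold changes of the 44 genes moved by less than the spread between libraries under every alternative: -0.29 to -0.24 between genotypes in normoxia, -0.14 to -0.084 with hypoxia in wild type, 0.10 to 0.16 with hypoxia in the double knockout, -0.056 to 0.0035 between genotypes in hypoxia and 0.22 to 0.27 for the difference of the responses. Counts of called genes were less stable. With each library left out in turn they ran from 11 to 24 of 22 in normoxia, 2 to 11 of 10 in wild type hypoxia, 10 to 19 of 17 in double knockout hypoxia, 1 to 4 of 3 between genotypes in hypoxia and 0 to 0 for the difference. With the most abundant transcript in place of the sum, counts were 10, 5, 11 and 1 in the same order, and Kif20a turned to 0.029 between genotypes in normoxia. The genotypes in normoxia had 15 with only the libraries of the comparison and 15 with no filter on low values. Wild type hypoxia had 5 with only the libraries of the comparison, double knockout hypoxia had 11 with no filter on low values, and the genotypes in hypoxia had 1 under quantile scaling. The causes were not tested, apart from the fewer libraries and the larger number of genes that those alternatives hold by construction. Of 4981 single-gene values under the alternatives, 220 lost a call with their sign kept and 76 gained one. A further 1, that of Kif20a, lost its call and changed sign. The sign changed in 152, of which 151 were called in neither fit and 1 is that of Kif20a. Most sign changes, 58 and 42, were between genotypes in hypoxia and with hypoxia in wild type.

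Libraries of different groups share a number in their titles, and the labels do not say whether the numbers pair them. Residual correlations were -0.084 to 0.17 for 18 same-number pairs and -0.13 to 0.13 for 36 others. Of the 12 libraries, 5 correlated best with their own number. With 3 libraries per group these correlations cannot settle whether the numbers mark pairs. With the number as a replicate block, 26 genes were called between genotypes in normoxia, 10 in wild type hypoxia, 17 in double knockout hypoxia, 3 between genotypes in hypoxia and 0 for the difference. Of the calls made without it, Ccnb2 in wild type hypoxia (adjusted p = 0.0578) and Aurkb in double knockout hypoxia (0.0542) were lost. Gained were Birc5, Cdc25c, Cdk1 and Ndc80 in normoxia, Birc5 in wild type hypoxia and Ndc80 in double knockout hypoxia. Estimated depth was a median of 679 fragments per value, and the part of counting error in the spread between libraries was not tested.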
